A study of Mus musculus with 32 samples.

Results

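Trem2, Tyrobp, Hcst, Syk, Plcg2 and Inpp5d encode a receptor complex of microglia and the enzymes that carry or restrain its signal. They were taken by name from a table of read counts from mouse spinal cord, as 6 of its 42524 genes, and the table held all 6. TREM2 is a surface receptor of microglia and other myeloid cells that binds lipids, lipoproteins and cell debris. It has almost no signalling tail of its own and works through TYROBP (DAP12), an adaptor whose phosphorylated ITAM motif recruits the kinase SYK. HCST (DAP10) is a second adaptor, with a motif that recruits PI3-kinase. Phospholipase C gamma 2, encoded by Plcg2, acts downstream of SYK, and SHIP1, the lipid phosphatase encoded by Inpp5d, removes a phosphate from the PI3-kinase product and so restrains the pathway. In neurodegenerative disease TREM2 is known for its part in the change of microglia from a resting to a disease-associated state.

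The mice were wildtype (WT) or carried the G93A transgene, a model of amyotrophic lateral sclerosis (ALS) that expresses mutant human SOD1 from many copies in all tissues and so is not restricted to motor neurons or microglia. Both were on the C57BL/6J background. Each genotype was left untreated or was given the nitrone compound OKN-007, and spinal cords were taken at 90 or 155 days by the labels, the first of which the methods of the study give as 95 days. There were 4 mice in each of the 8 groups (WT untreated, WT OKN-007, G93A untreated and G93A OKN-007 at each age), 32 mice in all, and the dose of the sequenced mice was not assigned here. The comparisons ask how far the transgene changed these genes at each age, and whether OKN-007 altered that change.

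Poly(A) RNA from 25 mg of spinal cord per mouse was sequenced, with library totals of 19701722 to 30138257 counted reads. Levels are given as CPM, the counts of a gene scaled to a common library total with TMM factors, and 3 counts in the smallest library correspond to 0.152 CPM. Xist was above 1 CPM in 32 mice and the Y-linked Kdm5d in 0. The reads of the human transgene were not analysed here. A summed level of 7 liver genes, which spinal cord should lack, reached 187 CPM in mouse 12 (G93A untreated, 155 days) and 130 CPM in mouse 15 (G93A OKN-007, 155 days), and was at most 77.3 CPM in the other mice.

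Tyrobp and Hcst are neighbours. In GENCODE M21 on GRCm38, Tyrobp lies at chr7:30413760-30417585 on the plus strand and Hcst at chr7:30417712-30419854 on the minus strand, so that the genes face each other end to end with 126 bases between them and no overlap. Trem2 lies at chr17:48346401-48354147, Syk at chr13:52583173-52648792, Plcg2 at chr8:117498291-117635142 and Inpp5d at chr1:87620312-87720507, all 4 on the plus strand. RefSeq windows of 250 bases upstream of the start, on GRCm38.p6, were at hand for 5 of the 6 genes (6 windows, with 2 for Syk) and were searched on both strands for AGGAAGT, which holds the GGAA core that ETS-family factors such as PU.1 of myeloid cells recognise. No other motif was searched. The letters were found in 2 of the 6 windows, those of Hcst and Inpp5d, and in 7.69% of all 32851 windows. In Hcst they began 46 and 17 bases before the start, and in Inpp5d 19 bases before it. The 120 bases before the start are shown for these genes, because they hold the matches, and for the receptor, with the matches in capitals and the sequence 5′ to 3′ on the strand of the gene.
Hcst, chr7:30419855-30419974, minus strand: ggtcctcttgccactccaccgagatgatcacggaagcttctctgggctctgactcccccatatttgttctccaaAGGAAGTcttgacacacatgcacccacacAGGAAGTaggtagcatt
Inpp5d, chr1:87620192-87620311, plus strand: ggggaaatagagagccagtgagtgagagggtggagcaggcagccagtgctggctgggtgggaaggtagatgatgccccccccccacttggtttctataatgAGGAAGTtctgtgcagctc
Trem2, chr17:48346281-48346400, plus strand: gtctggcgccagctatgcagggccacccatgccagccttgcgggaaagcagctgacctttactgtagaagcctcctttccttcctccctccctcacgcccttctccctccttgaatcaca
A match of letters is a description of the window and not a binding site, and none of the count data bear on binding there.

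At 155 days all 6 genes were higher in untreated G93A than in untreated WT mice, and in each of the 6 the lowest G93A mouse lay above the highest WT mouse. The receptor and its main adaptor rose most, Tyrobp 15.1-fold and Trem2 11.5-fold. The signalling enzymes rose less, Inpp5d 4.51-fold, Syk 3.98-fold and Plcg2 3.61-fold. Differences of this kind were common in the same comparison: 39.5% of the 18675 genes tested passed an adjusted p of 0.05, 21.3% as higher in G93A, and 15.6% were higher without overlap between the groups. By size the changes of Tyrobp and Trem2 were further out, since 0.637% of genes had a larger absolute log2 fold change than Tyrobp and 0.894% a larger one than Trem2, against 3.12% for Inpp5d, 3.69% for Syk and 4.22% for Plcg2. The median log2 fold change was 2.29 over the 6 genes and 0.00015 over all genes tested. The median of the 6 lies between Inpp5d (2.17) and Hcst (2.41), and that of Hcst rests on few counts. In whole tissue, more cells of a type and more RNA per cell cannot be told apart.

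**Figure D1:**
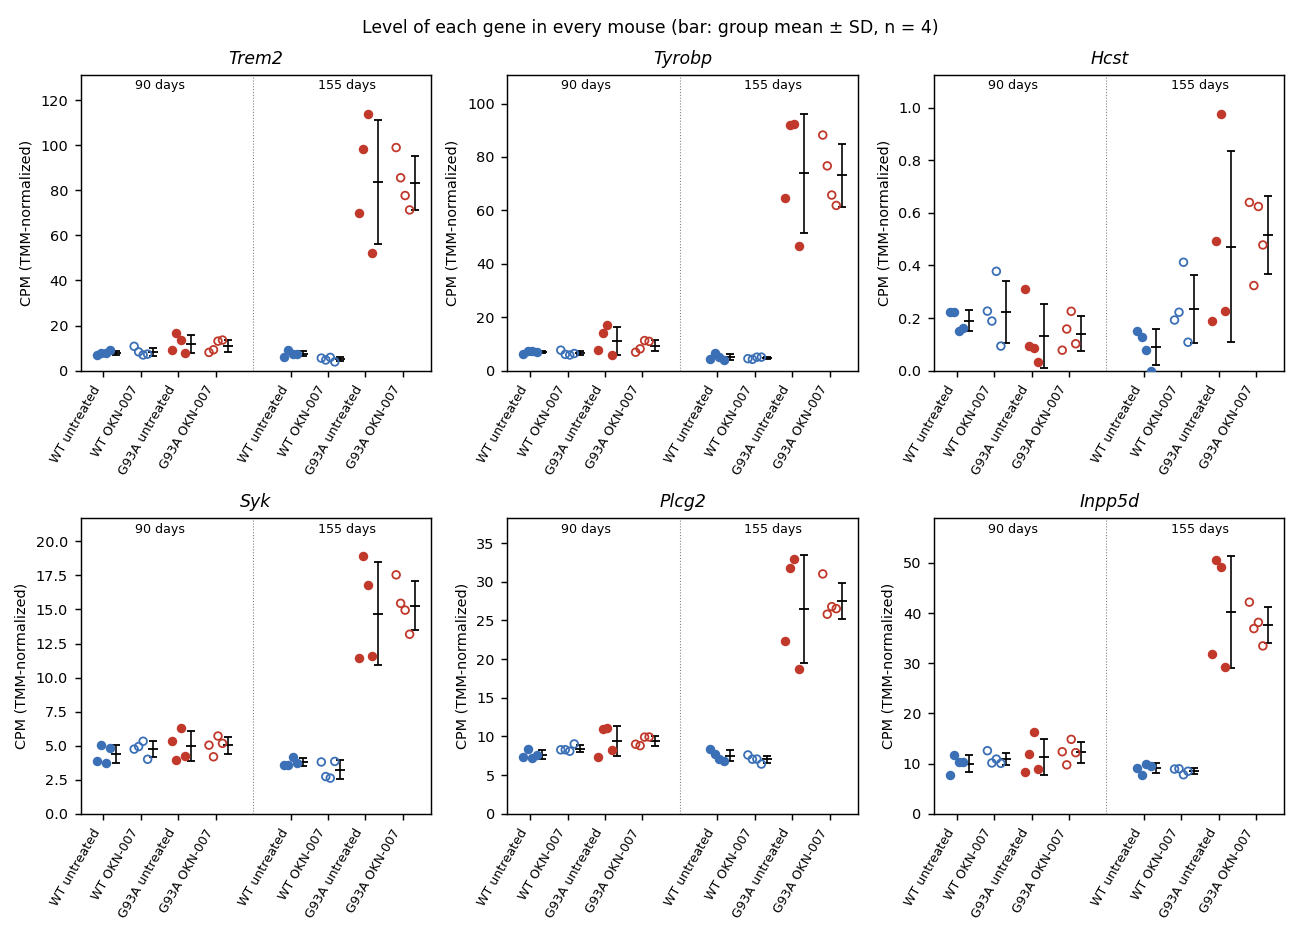
The level of each of the 6 genes in every mouse, in TMM-normalized CPM on linear axes that start at 0, with WT mice in blue, G93A mice in red, untreated mice as filled and OKN-007 mice as open circles, and a bar for each group mean ± SD (n = 4). At 155 days the G93A mice stand above the WT mice in every panel except that of Hcst, where the OKN-007 groups overlap.

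Trem2, the receptor, was at 6.09, 8.98, 7.46 and 7.39 CPM in the untreated WT mice at 155 days and at 70.2, 98.4, 114 and 52.3 CPM in the untreated G93A mice. The lowest G93A mouse was thus well above every WT mouse, while the G93A mice themselves spread widely around their mean of 83.7 ± 27.7 CPM (SD, n = 4). The log2 fold change of Trem2 was 3.53 (SE 0.21, adjusted p = 2.1e-10, edgeR quasi-likelihood test with Benjamini-Hochberg adjustment).

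Tyrobp, the ITAM adaptor, was at 4.22, 6.68, 5.25 and 4.12 CPM in the untreated WT mice and at 64.5, 92.0, 92.2 and 46.6 CPM in the untreated G93A mice of that age. It had fewer reads than Trem2 in each of these WT mice and in each of these G93A mice. Its log2 fold change was 3.91 (SE 0.21, edgeR adjusted p = 7.3e-11). Its group means were 5.07 ± 1.19 and 73.8 ± 22.4 CPM (SD, n = 4).

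Hcst, the PI3-kinase adaptor, was near the limit of detection. At 155 days it had 4, 3, 2 and 0 counts in the untreated WT mice and 5, 12, 24 and 7 counts in the untreated G93A mice. The groups did not overlap, but the highest WT mouse and the lowest G93A mouse differed by a single count. Scaled by library size, the 48 summed G93A counts against 9 WT counts gave a ratio of 5.32 (95% interval 2.58 to 12.3, exact binomial, counting error only), and the log2 fold change was 2.41 (SE 0.66, edgeR adjusted p = 0.0066). Mouse 11 alone gave 24 of the 48 counts. Of the 16 mice of that age, the level that the filter on low counts asks for (0.373 CPM) was reached by 2 untreated and 3 treated G93A mice and by 0 untreated and 1 treated WT mice, so Hcst was tested mainly through the groups in which it was high.

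Syk, the kinase recruited by the adaptor, was at 3.61, 3.62, 4.20 and 3.73 CPM in the untreated WT mice and at 11.5, 18.9, 16.8 and 11.6 CPM in the untreated G93A mice. The WT mice lay close together (3.79 ± 0.28 CPM, SD, n = 4) and the G93A mice fell into a lower and a higher pair. The log2 fold change was 1.99 (SE 0.17, edgeR adjusted p = 1.89e-08).

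Plcg2, the phospholipase, was at 8.37, 7.75, 7.15 and 6.86 CPM in the untreated WT mice and at 22.4, 31.8, 32.9 and 18.7 CPM in the untreated G93A mice, a log2 fold change of 1.85 (SE 0.14, edgeR adjusted p = 7.78e-09). In WT mice it was the member with about as many reads as Trem2, whereas in G93A mice every Plcg2 value lay below every Trem2 value. These are levels per gene and not per length.

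Inpp5d, the phosphatase that restrains the pathway, was at 9.17, 7.83, 10.03 and 9.61 CPM in the untreated WT mice and at 31.9, 50.6, 49.1 and 29.3 CPM in the untreated G93A mice. It rose together with the genes whose signal it opposes, with a log2 fold change of 2.17 (SE 0.15, edgeR adjusted p = 1.28e-09).

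The spread within the G93A groups was shared between the genes. Among the untreated G93A mice at 155 days, mice 10 and 11 held the highest pair of values and mice 9 and 12 the lowest pair for each of the 6 genes. Among the OKN-007-treated G93A mice of that age, mouse 13 was the highest for each of the 6 genes, and mouse 16 the lowest for Trem2, Tyrobp, Syk and Inpp5d. The summed level of 9 genes of microglia and other macrophages (Aif1, Csf1r, Itgam, Spi1, Laptm5, Cd68, C1qa, C1qb and C1qc) was also highest in mice 10, 11 and 13, with 1373, 2039, 2232 and 1099 CPM in mice 9 to 12 and 1850, 1727, 1599 and 1369 CPM in mice 13 to 16. Mouse 12, the lowest, was also the mouse with the most liver RNA. Mouse 15, with 130 CPM of liver RNA, was not the lowest of its group for any of the 6 genes. From the highest it ranked 2 of 4 for Hcst, Plcg2 and Inpp5d and 3 of 4 for Trem2, Tyrobp and Syk. A relation of liver RNA to these levels was not tested. Without mouse 12 all 6 genes still passed, with a log2 fold change of 3.70 for Trem2 and 4.08 for Tyrobp.

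In the OKN-007-treated mice of 155 days, 5 of the 6 genes were higher in G93A than in WT mice. Of all 18675 genes, 41.5% were called and 23.3% were called as higher. Trem2 was at 5.54, 4.70, 5.85 and 3.85 CPM in the WT mice and at 99.0, 85.6, 77.7 and 71.3 CPM in the G93A mice, a log2 fold change of 4.14 (SE 0.21, edgeR adjusted p = 4.56e-11). Tyrobp was at 4.46, 4.22, 5.02 and 5.03 CPM in the WT mice and at 88.2, 76.7, 65.7 and 61.9 CPM in the G93A mice, a log2 fold change of 4.04 (SE 0.21, edgeR adjusted p = 4.13e-11). These groups were far apart for both genes, and for both the treated G93A mice spread less than the untreated ones (SD 11.9 CPM each, n = 4).

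Syk changed by 2.30 on the log2 scale in these mice, Inpp5d by 2.21 and Plcg2 by 2.04, each with an edgeR adjusted p of 2.63e-09 or less and none with overlap between the groups, beside 20.2% of all genes that were higher without overlap. Hcst was the exception. Its 5, 6, 11 and 3 counts in the treated WT mice overlapped with the 19, 9, 19 and 12 counts in the treated G93A mice, and its log2 fold change of 1.21 (SE 0.54, edgeR adjusted p = 0.0799) missed the threshold. The summed ratio was 2.24 (95% interval 1.38 to 3.74, counting error only).

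At 90 days none of the 6 genes passed the test in either treatment. Hcst was too low to be tested at that age, with 1 to 9 counts per mouse, and its summed counts were 13 in untreated G93A and 20 in untreated WT mice (ratio 0.686, 95% interval 0.313 to 1.45). Of all 18899 genes tested, 0 passed the adjusted p in the untreated comparison and 5.96% had an unadjusted p under 0.05, as had 3 of the 5 members tested. In OKN-007-treated mice the same shares were 0 and 3.95%, with 0 of the 5 members at an unadjusted p under 0.05. Under DESeq2, 16 of all genes and 0 of the 6 passed.

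Trem2 at 90 days was at 6.82, 7.80, 7.92 and 9.03 CPM in untreated WT mice and at 8.98, 16.6, 13.6 and 7.72 CPM in untreated G93A mice. Tyrobp was at 6.34, 7.21, 7.36 and 6.78 CPM against 7.62, 14.2, 16.9 and 5.93 CPM. For both genes mice 10 and 11 of the G93A group lay above every WT mouse and mouse 12 lay among or below them, so the groups overlapped. The same mice 10 and 11 had the highest summed level of the 9 macrophage genes (405 and 411 CPM, against 227 and 250 CPM in mice 12 and 9 and at most 256 CPM in the untreated WT mice).

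The log2 fold changes of the untreated groups at 90 days were 0.60 for Trem2 (95% CI 0.12 to 1.07) and 0.71 for Tyrobp (95% CI 0.18 to 1.25), and 0.33 for Plcg2 (95% CI 0.05 to 0.60), with an edgeR adjusted p of 0.822 for each. Syk changed by 0.20 (95% CI -0.14 to 0.54) and Inpp5d by 0.21 (95% CI -0.19 to 0.60). The intervals thus reached up to a 2.38-fold increase for Tyrobp and a 2.10-fold increase for Trem2.

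In the OKN-007-treated mice at 90 days, Trem2 was at 10.8, 8.29, 6.92 and 7.31 CPM in WT and 8.07, 9.25, 13.1 and 13.6 CPM in G93A mice, which overlapped. Averaged over both treatments, the G93A change at 90 days was 0.50 for Trem2 (edgeR adjusted p = 0.478) and 0.62 for Tyrobp (edgeR adjusted p = 0.365), and 5 of all 18899 genes passed (0.0265%), with 0 of the 6 among them. At an unadjusted p under 0.05 the share was 6.61% of all genes and 3 of the 5 members tested. The members' calls in this averaged comparison turned on the handling of low counts and on 1 mouse: with no filter on low counts Trem2 (adjusted p = 0.0469) and Tyrobp (adjusted p = 0.0117) passed, and without mouse 12 of the untreated G93A group Tyrobp passed (log2 0.73, adjusted p = 0.0453).

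**Figure D2:**
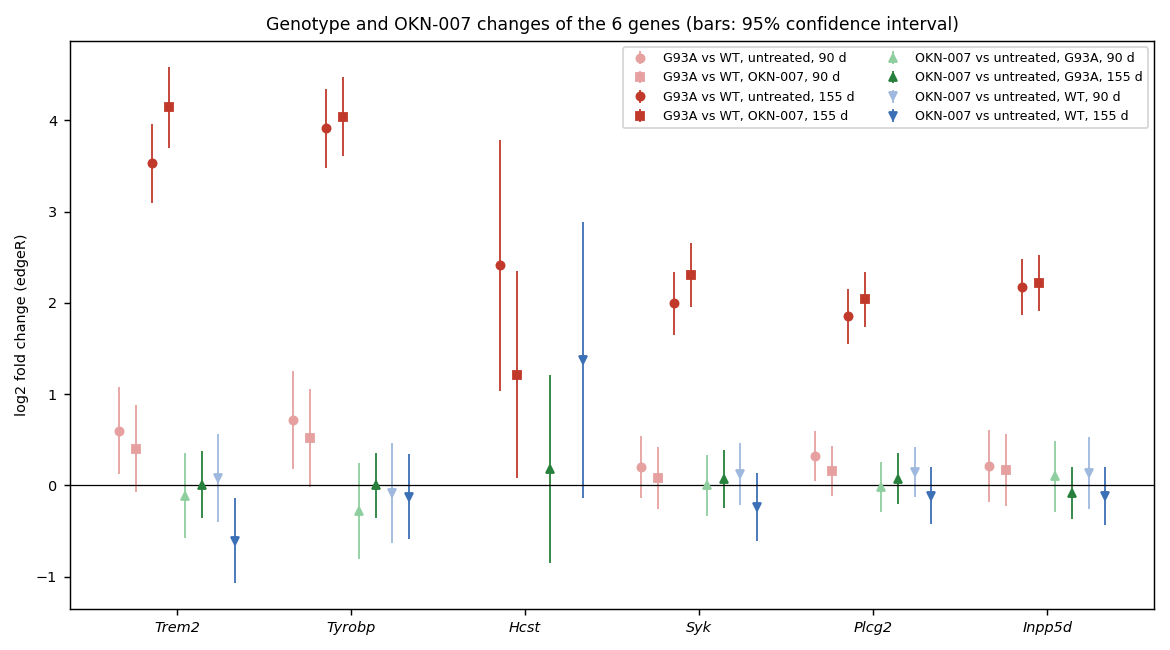
The log2 fold change of each of the 6 genes with its 95% confidence interval in 8 comparisons, with G93A against WT in red (pale at 90 days), OKN-007 against untreated in G93A mice in green and in WT mice in blue. The red points of 155 days lie between 1.21 and 4.14, and every OKN-007 interval but that of Trem2 in WT mice at 155 days includes 0. Hcst was not tested at 90 days.

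The growth of the G93A change between the ages was tested directly, as the difference between the change at 155 and that at 90 days in a fit of all 32 mice. In untreated mice it was larger at 155 days for Tyrobp, Trem2, Inpp5d, Syk and Plcg2, and for Hcst by a call that rested on single mice, beside 21.2% of all 19829 genes called and 12.9% called as larger. The difference in log2 fold change was 3.20 for Tyrobp (SE 0.34, edgeR adjusted p = 3.29e-08), 2.92 for Trem2 (SE 0.32, edgeR adjusted p = 4.32e-08), 1.96 for Inpp5d, 1.78 for Syk and 1.52 for Plcg2. For Hcst, which was too low for a test at 90 days alone, it was 2.90 (SE 0.92, edgeR adjusted p = 0.0226). Hcst passed the filter of this fit mainly through the G93A mice of 155 days. Its call was lost without mouse 11 of the untreated G93A group of 155 days (2.28, adjusted p = 0.0857) or mouse 12 of that of 90 days (2.56, adjusted p = 0.0554). In OKN-007-treated mice, where 23.0% of all genes were called, the 5 genes other than Hcst passed.

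Between 90 and 155 days, 0 of the 6 genes passed the test in untreated WT mice, where 24.9% of all genes did, and 6 of 6 rose in untreated G93A mice, where 33.7% of all genes were called. The rise of Hcst (1.81, edgeR adjusted p = 0.0192), whose ages overlapped, was lost without mouse 11 of 155 days (adjusted p = 0.156), without any of mice 10 to 12 of 90 days and with no filter on low counts. In untreated WT mice Trem2 differed by -0.07 on the log2 scale (95% CI -0.54 to 0.41), Tyrobp by -0.45 (95% CI -0.96 to 0.07) and Hcst by -1.09 (95% CI -2.50 to 0.32) between the ages. In untreated G93A mice Trem2 rose by 2.86 (SE 0.22) and Tyrobp by 2.75 (SE 0.23), with no overlap between the ages, as for 15.5% of all genes that were higher at 155 days. In OKN-007-treated WT mice the 5 genes other than Hcst were lower at 155 than at 90 days without overlap, as 12.5% of all genes were, among them Trem2 with means of 4.98 ± 0.90 and 8.32 ± 1.73 CPM and Tyrobp with 4.68 ± 0.41 and 6.48 ± 0.81 CPM (SD, n = 4). That difference between ages was not tested. The comparisons between ages set separately collected groups side by side, and age cannot be told apart from the time of collection.

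OKN-007 changed none of the 6 genes past the threshold, in either genotype at either age, nor did any of them pass the test of the genotype by OKN-007 interaction or that of the OKN-007 effect between ages. In the main edgeR fits 0 genes of the whole table passed in these comparisons and with DESeq2 at most 2. Over all alternatives, leaving out single mice included, at most 17 genes passed, for OKN-007 in G93A mice at 155 days. An unadjusted p under 0.05 was seen for 5.56% of all genes in G93A and 4.07% in WT mice at 90 days and for 4.04% in G93A and 2.94% in WT mice at 155 days, and for 2.81% (90 days) and 2.34% (155 days) in the interaction and 2.35% in the comparison of the OKN-007 effect between ages. Of the members, only Trem2 reached it, in WT mice at 155 days and in the interaction at that age. In G93A mice at 155 days the group means were nearly the same, 83.7 ± 27.7 against 83.4 ± 11.9 CPM for Trem2 and 73.8 ± 22.4 against 73.1 ± 11.9 CPM for Tyrobp (SD, n = 4). The intervals limit the ratio of treated to untreated G93A mice to 0.778 to 1.30 for Trem2, 0.779 to 1.28 for Tyrobp, 0.844 to 1.31 for Syk, 0.865 to 1.28 for Plcg2 and 0.776 to 1.15 for Inpp5d. For Hcst the interval was wider, 0.552 to 2.32.

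The one member whose WT groups stood apart was Trem2 at 155 days. All 4 OKN-007-treated WT mice (3.85 to 5.85 CPM) lay below all 4 untreated WT mice (6.09 to 8.98 CPM), a separation in either direction that 1.90% of all genes showed in this comparison. The log2 difference was -0.61 (SE 0.22, 95% CI -1.07 to -0.14) with an unadjusted p of 0.0132, and the gene ranked 100 of 18675 by p, with an edgeR adjusted p of 1. The same comparison gave -0.13 for Tyrobp (95% CI -0.59 to 0.34), whose groups overlapped. The summed macrophage genes were also lower, at 168 to 179 CPM in the treated and 190 to 251 CPM in the untreated WT mice. At 90 days the WT means of Trem2 were 8.32 ± 1.73 CPM with and 7.89 ± 0.90 CPM without OKN-007 (SD, n = 4). The interaction of Trem2 with genotype at 155 days was 0.61 (95% CI 0.02 to 1.21, edgeR adjusted p = 1), and it did not pass.

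Hcst moved the other way in these WT mice, with 25 summed counts in the treated and 9 in the untreated group at 155 days (ratio 2.74, 95% interval 1.24 to 6.67, counting error only). The mice overlapped (3 to 11 against 0 to 4 counts), and the edgeR adjusted p was 1 (log2 1.37, 95% CI -0.13 to 2.88).

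The order of the 8 groups was similar for the 5 genes with enough reads. The G93A groups of 155 days were the highest pair for each of them and did not differ from each other beyond their spread. The G93A groups of 90 days came next for Trem2 (11.7 ± 4.13 and 10.99 ± 2.74 CPM), Tyrobp (11.2 ± 5.24 and 9.29 ± 2.13 CPM), Syk (4.97 ± 1.07 and 5.03 ± 0.63 CPM), Plcg2 (9.44 ± 1.94 and 9.42 ± 0.60 CPM) and Inpp5d (11.4 ± 3.62 and 12.3 ± 2.08 CPM, SD, n = 4), and overlapped with the WT group of the same age and treatment. WT OKN-007 mice of 155 days had the lowest mean for each of the 5, though only for Trem2 were they apart from the untreated WT mice of that age. At 90 days the single values of the enzymes ranged from 3.76 to 6.33 CPM for Syk, 7.25 to 11.2 CPM for Plcg2 and 7.68 to 16.2 CPM for Inpp5d over all 16 mice.

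Per kilobase of exon, Tyrobp had the highest level of the 6 in untreated WT mice at 155 days, with 7.60 CPM per kb. Plcg2 followed with 1.75, Trem2 with 1.51, Inpp5d with 1.20, Syk with 0.405 and Hcst with 0.124 CPM per kb. In untreated G93A mice the order was Tyrobp with 111, Trem2 with 16.9, Plcg2 with 6.15, Inpp5d with 5.29, Syk with 1.57 and Hcst with 0.652 CPM per kb. The exons of Trem2 span in all 4946 bases and its principal transcript 1088, and over the principal transcripts, an alternative added after seeing the data, Trem2 would be second in both groups with 6.88 and 77.0 CPM per kb, behind Tyrobp with 8.99 and 131 CPM per kb.

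The CPM ratio of Trem2, the receptor, to Tyrobp, its adaptor, in the same mouse was 1.34 to 1.79 in the untreated WT mice at 155 days and 1.07 to 1.24 in the untreated G93A mice. In the OKN-007 groups it was 0.764 to 1.24 in WT and 1.12 to 1.18 in G93A mice. So the ratio was lower in G93A mice in the untreated comparison without overlap and overlapped in the treated one. Of all genes tested, 99.4% fell relative to Tyrobp without overlap in untreated and 99.6% in OKN-007-treated mice.

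The enzymes changed their ratio to Tyrobp more. The CPM ratio of Inpp5d to Tyrobp fell from 1.17 to 2.33 in untreated WT mice to 0.495 to 0.629 in untreated G93A mice, that of Plcg2 from 1.16 to 1.98 to 0.345 to 0.402, and that of Syk from 0.541 to 0.905 to 0.178 to 0.249. A lower level relative to Tyrobp was common to nearly every gene. On the log2(CPM + 0.5) scale, 99.4% of the genes tested fell without overlap in the untreated mice, and 0.0750% rose.

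**Figure D3:**
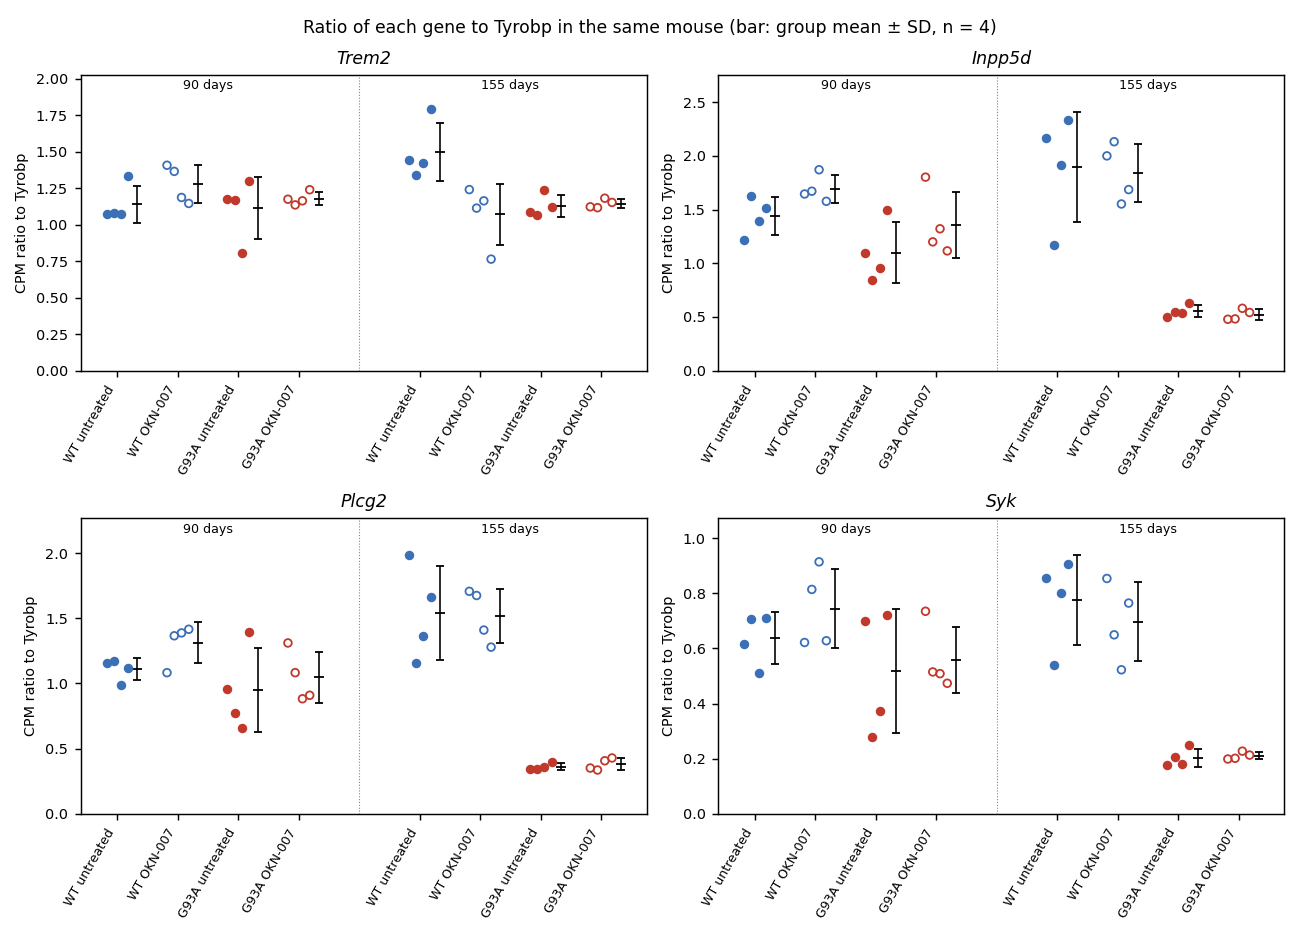
The CPM of Trem2, Inpp5d, Plcg2 and Syk divided by that of Tyrobp in the same mouse, on linear axes that start at 0, with WT mice in blue, G93A mice in red, untreated mice as filled and OKN-007 mice as open circles, and a bar for each group mean ± SD (n = 4). At 155 days the ratios of Inpp5d, Plcg2 and Syk are lower in each G93A mouse than in each WT mouse, while that of Trem2 stays between 0.764 and 1.79 over all 16 mice of that age.

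Set against the mean log2 level of the 9 macrophage genes in the same mouse, Trem2 and Tyrobp rose more and Syk, Plcg2 and Inpp5d less at 155 days. The mean of the list changed by 2.89 in untreated and 3.12 in OKN-007-treated mice on the log2(CPM + 0.5) scale. Relative to it Tyrobp gained 0.82 and 0.70, and Trem2 0.46 and 0.83. In all 4 of these comparisons every G93A mouse lay above every WT mouse, as 0.278% (untreated) and 0.305% (OKN-007) of all genes tested did.

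Syk (-1.10 and -1.03), Plcg2 (-1.18 and -1.22) and Inpp5d (-0.85 and -1.04) lagged behind the list without overlap, as 98.6% and 99.0% of all genes did. The exact two-sided permutation test gave p = 0.0286 for each of these differences, the smallest that 4 against 4 mice allow, and 0 of the 24 tests of the 6 genes at both ages passed after adjustment (p = 0.0571). The lag depended on the reference: against 8 genes of homeostatic microglia in place of the list, Syk (0.26 and 0.37), Plcg2 (0.18 and 0.18) and Inpp5d (0.51 and 0.37) gained instead, while Trem2 (1.82 and 2.23) and Tyrobp (2.17 and 2.11) still gained. Against Csf1r alone, which encodes the receptor for macrophage growth factors, Syk (-0.02 and 0.16) and Plcg2 (-0.10 and -0.03) were close to 0. Inpp5d lay above 0 against Csf1r in both treatments. Hcst was among the 24 tests, but its values relative to the list are not given. Its mean levels of 0.0894 ± 0.067 CPM in untreated WT and 0.471 ± 0.36 CPM in untreated G93A mice (SD, n = 4) lie below the pseudocount of 0.5. This compressed its change to 0.66 on that scale beside 2.41 in the edgeR fit.

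**Figure D4:**
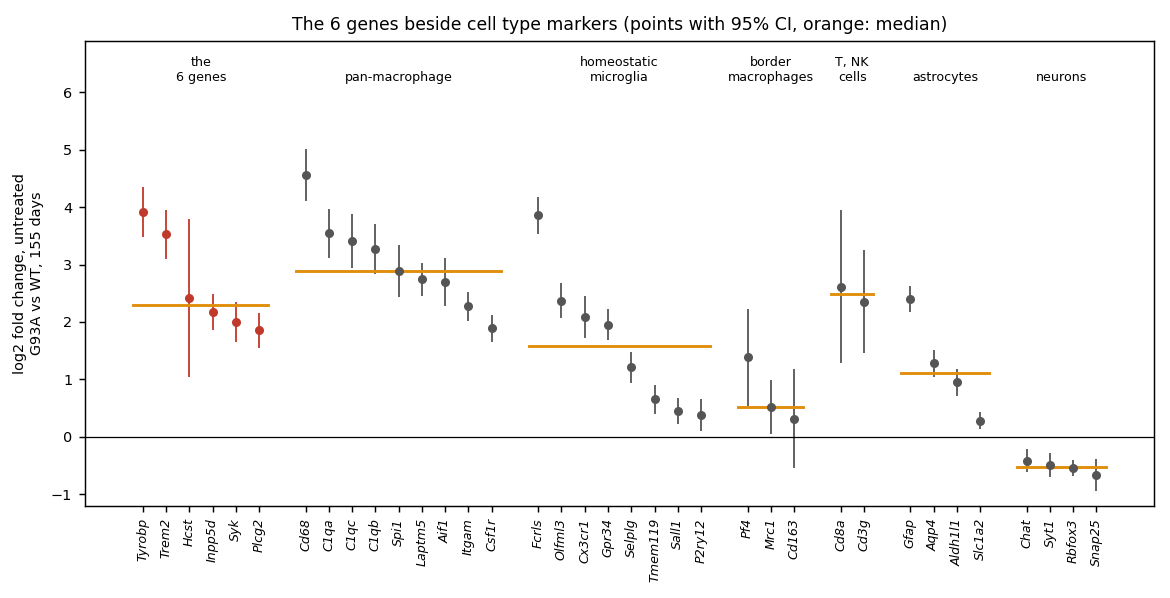
The change of untreated G93A against WT mice (log2, 155 days), with 95% confidence intervals, of the 6 genes (red) and of the tested genes of 6 cell type lists (grey), with the median of each list as an orange line. The 6 genes, with Hcst and its few counts among them, have a median of 2.29. Beside it stand 2.89 for the pan-macrophage list, 1.58 for homeostatic microglia and -0.52 for neurons.

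Markers of other cells moved in the same comparison, in which 21.3% of all 18675 genes were called as higher and 18.2% as lower. Of the macrophage genes 9 of 9 were higher in untreated G93A mice (summed 1099 to 2232 against 190 to 251 CPM in WT mice), and of 8 homeostatic microglial genes 8 were higher, among them P2ry12 by only 0.39 and Tmem119 by 0.65 on the log2 scale. Of 6 genes of T and NK cells, which also express Hcst and, in NK cells, Tyrobp, the 2 that could be tested were higher (Cd3g 2.36 and Cd8a 2.61), but the whole list summed to 1.33 to 1.83 CPM in G93A and 0.213 to 0.622 CPM in WT mice, and 1 of the 6 stayed at or below 3 counts in every untreated G93A mouse. Of 6 genes of monocytes and neutrophils 0 of the 2 tested passed, and of 4 of border macrophages 1 of 3 (Pf4). No gene of the B cell list reached the level needed for a test.

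Of the astrocyte genes 4 of 4 were higher, of the neuronal genes 4 of 4 were lower and of the oligodendrocyte genes 0 of 4 passed. The shares over all genes were 21.3% called as higher and 18.2% called as lower. The summed level of 5 Hox genes that mark the position along the cord was 145 to 178 CPM in the G93A group and 176 to 214 CPM in the WT group of that comparison. Single Hox genes differed more than their sum. Hoxc8 was higher (0.70, SE 0.21, edgeR adjusted p = 0.0146), while Hoxa10 (-1.28), Hoxc10 (-1.23), Hoxd10 (-1.48) and Hoxc9 (-0.34) did not pass, and in OKN-007-treated mice Hoxc8 was higher (0.56) and Hoxd10 (-2.35) and Hoxc10 (-1.50) were lower. The part of cell numbers, of position along the cord and of liver RNA in the changes of the 6 genes was not tested. In a fit with the mean log2 level of the Hox genes as covariate, each of the 6 was still higher in untreated G93A mice. That mean pools Hox genes that moved in opposite directions, and their sums in the G93A and WT groups barely overlapped. Position and genotype therefore cannot be told apart by this fit, and it does not bear on cell numbers or liver RNA.

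Of 52 other genes of the pathway, listed by role, 43 could be tested at 155 days, and 30 were higher and 1 lower in untreated G93A mice while 12 did not pass, beside 39.5% of all genes called and 21.3% called as higher. In OKN-007-treated mice 30 were higher and 1 lower, beside 23.3% of all genes called as higher. The median log2 fold change of the 43 was 0.98 in the untreated comparison, beside 0.00015 over all genes tested, and 0 of them passed in any comparison of OKN-007 with untreated mice.

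Of the ligands and sheddases 5 of 5 were higher, beside 21.3% of all genes called as higher. Lgals3, which encodes galectin-3, changed by 5.53 (SE 0.25), Apoe, the lipid carrier that TREM2 binds, by 2.47 (SE 0.19), Clu, a lipoprotein component, by 1.73 (SE 0.15) and Adam17, a protease that sheds TREM2, by 0.76 (SE 0.09). Lgals3 was also the one pathway gene that passed at 90 days averaged over treatment (log2 1.95, SE 0.27, edgeR adjusted p = 0.00473), at a mean level of 14.5 ± 8.34 CPM with the transgene and 3.25 ± 0.99 CPM without it when untreated (SD, n = 4).

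Of the 5 other TREM family genes only Treml2 had enough counts for a test, and it was higher (3.93, SE 0.34). Of 10 receptors that pair with TYROBP or HCST and other ITAM adaptors, 5 were tested and 4 were higher, beside 21.3% of all genes called as higher. The 4 were the receptors Cd300lb (3.80, SE 0.40), Clec5a (2.46, SE 0.19) and Siglech (0.98, SE 0.11), and Fcer1g (3.43, SE 0.21), which encodes the ITAM-bearing Fc receptor gamma chain. Klrk1, the NKG2D receptor that pairs with HCST, did not pass.

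Of the 5 Src family kinases listed, which phosphorylate ITAMs, 4 were higher, beside 21.3% of all genes called as higher. Fgr (2.89, SE 0.24) and Lyn (2.24, SE 0.13), kinases of myeloid cells, changed by more than 4-fold, and the broadly expressed Fyn (0.25, SE 0.06) and Src (0.19, SE 0.07) by less. Yes1 did not pass.

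Of the 20 effectors downstream of SYK, 13 were higher, 1 lower and 6 did not pass. The shares over all genes were 21.3% called as higher and 18.2% called as lower. The largest changes were those of the adaptors Blnk (3.13, SE 0.21) and Lat2 (2.97, SE 0.15), the kinase Btk (2.80, SE 0.23) and the small GTPase Rac2 (2.76, SE 0.24). Vav3, an exchange factor, was lower (-0.44, SE 0.14, edgeR adjusted p = 0.019). Plcg1, the relative of Plcg2, and Zap70, the relative of Syk, did not pass.

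Of the 7 negative regulators listed, 3 were higher and 4 did not pass. The share called was near the 39.5% of all genes called in either direction, of which the genes called as higher made up 21.3% of all genes. The phosphatase gene Ptpn6 (SHP-1; 3.04, SE 0.19) and the adaptor gene Dok1 (2.42, SE 0.26) rose in the range of the 6 genes. Inppl1, the relative of Inpp5d that encodes SHIP2, changed by 0.89 (SE 0.09).

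**Figure D5:**
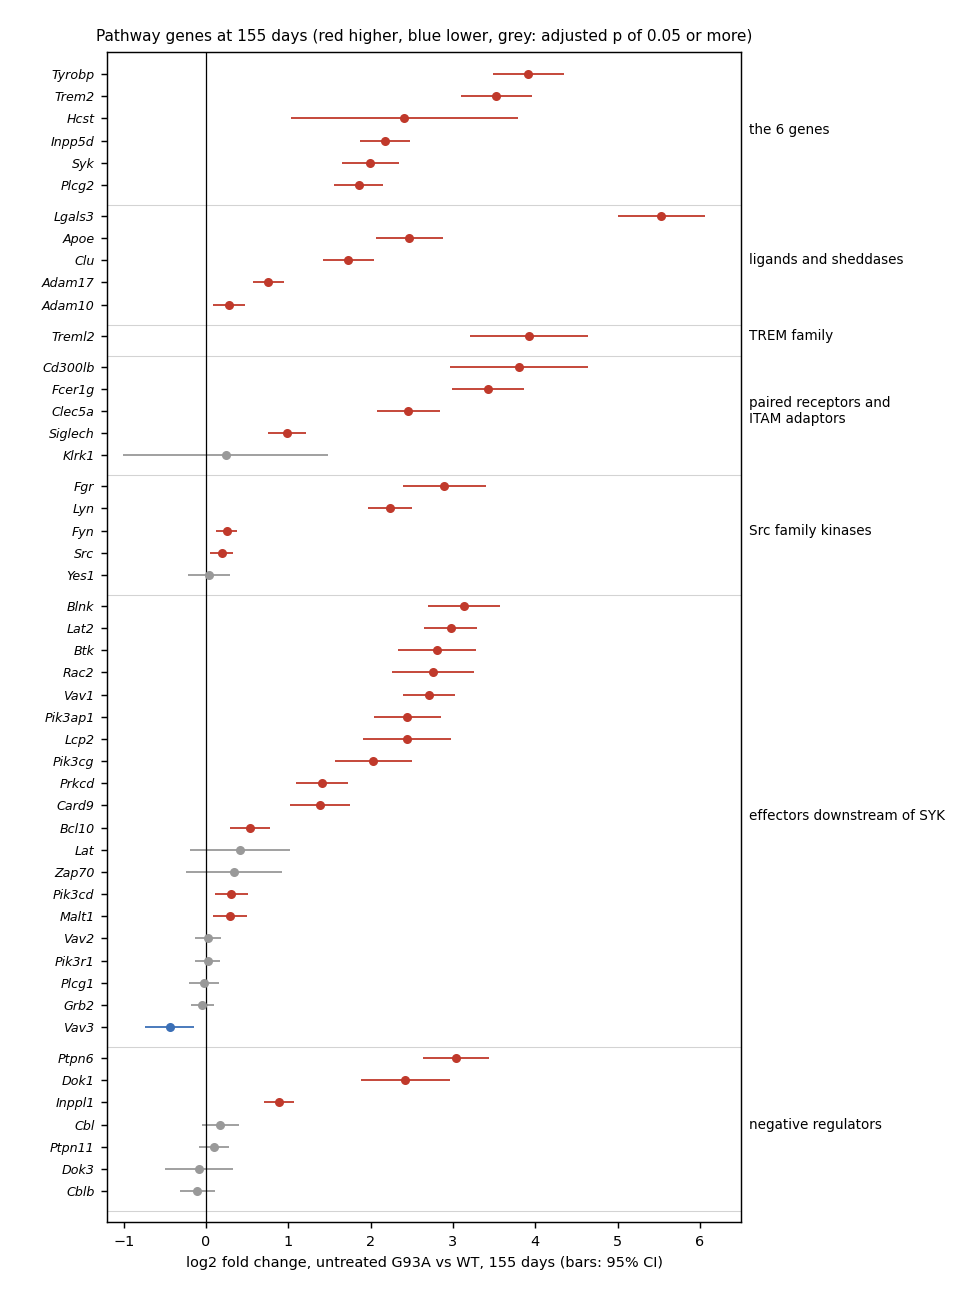
The change of untreated G93A against WT mice (log2, 155 days) of the 6 genes and the 43 tested genes of the pathway list, by role, with 95% confidence intervals (red higher, blue lower, grey not past an adjusted p of 0.05). Among the Src family kinases, the effectors and the negative regulators the genes spread from changes near 0 to changes like those of the 6 genes, and Lgals3 at 5.53 is the largest.

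The genes whose pattern over the 32 mice was most like that of each member were found by the root-mean-square difference of centred log2(CPM + 0.5) values among 19829 genes. For Trem2 they were C1qa (0.154), Cd84 (0.160) and C1qc (0.162), and for Tyrobp C1qa (0.162), C1qc (0.180) and Trem2 (0.203). So 3 genes were closer to Trem2 than Tyrobp was. Those nearest to Inpp5d were Ikzf1 (0.154), Csf1r (0.160) and Ctsc (0.170), to Plcg2 Hexa (0.108), Itgb5 (0.117) and Ctsb (0.126), and to Syk Hexa (0.183), Pros1 (0.186) and Parp3 (0.190). Hcst varied little on this scale, on which low levels are held close to the pseudocount, and its nearest genes were Mtmr11 (0.203), Sumf1 (0.203) and Pon2 (0.208). The differences take in the size of the change as well as its shape, and the mice share libraries and depth.

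The nearest expressed genes on either side of the members differed from locus to locus. Beside Trem2, both B430306N03Rik (3.08, SE 0.50) and Nfya (1.01, SE 0.10) were higher in untreated G93A mice at 155 days, as Trem2 was. B430306N03Rik was near the limit of detection, with 0.105 ± 0.058 CPM in these WT and 0.898 ± 0.54 CPM in these G93A mice (SD, n = 4). It was too low for a test at 90 days. Tyrobp and Hcst, which are each other's neighbours, were both higher. Beside Syk, Diras2 (-0.78, SE 0.13) and Auh (-0.32, SE 0.08) were lower. Lrfn3 and Nfkbid, on the outer sides of Tyrobp and Hcst, and Cmip, Sdr42e1, Neu2 and Atg16l1, beside Plcg2 and Inpp5d, did not pass.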

How the data were processed

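The authors isolated RNA with TRIzol, made libraries with a stranded mRNA kit, sequenced them on a NextSeq 500 and deposited raw read counts per gene for 32 mice, which are not normalized. The study's methods name Trimmomatic, STAR, HTSeq and the GENCODE M10 annotation of GRCm38, whereas the submitters' processing notes name STAR, featureCounts and GRCm39. The 1306 gene IDs that GENCODE M21 does not hold all lie above its highest ID, so the counting used an annotation newer than M21. Exon sets and counts of the 6 genes may therefore differ from the M21 models, which gave symbols (96.9% of IDs), positions and lengths. Only mean levels per kilobase rest on those lengths.

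Groups were taken from the labels. For each age the 16 mice were fitted as 4 groups with edgeR 4.0.16 in R 4.3.3 (filterByExpr, TMM, glmQLFit and glmQLFTest), and comparisons between ages in a fit of 32 mice, on 18899 (90 days), 18675 (155 days) and 19829 genes. Calls are Benjamini-Hochberg adjusted p-values under 0.05 over all genes tested. Standard errors were derived from the F statistic. DESeq2 1.42.0, other normalizations, filters and covariates and leaving out each mouse were tried as alternatives. Log2 levels used a pseudocount of 0.5 CPM. Intervals of count ratios are exact binomial and cover counting error only. The labels do not say that the mice of a group came from separate litters, so p-values measure the spread between these mice.

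No pair of mice within a group was the same library (smallest chi-square 3.58 per gene). Same-numbered mice of the 2 ages deviated from their group means with correlations of -0.219 to 0.213 (over 0.1 in 3 of 16 pairs), so the numbers were not used as pairs. On data simulated for the untreated comparison at 155 days (18438 genes), the test recovered 73.9% of 88 genes changed 2-fold and 96.4% of 111 changed 4-fold. All other genes were unchanged in the simulation, whereas 39.5% of genes were called in the data. These shares therefore need not hold for the data.

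The 6 genes and all lists were chosen with earlier results of these data known. The genes named besides the 6 are, per role, up to 4 pathway genes with the largest change past the threshold in untreated mice at 155 days, any called at 90 days or with OKN-007, the 3 most similar genes and the nearest expressed neighbours. Some genes of the pathway lists are not reported here and are in none of the counts of those lists. Klrk1, Yes1, Plcg1 and Zap70 and the cell type markers were named after their values were seen. Promoter sequences are from RefSeq.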

Additional observations from a re-analysis of the deposited data

Results flagged for a closer look

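The difference in the G93A change between 155 and 90 days passed the edgeR test of the difference itself in 11 cases, which are set out here. Such a difference was common, with 21.2% of all 19829 genes called in untreated and 23.0% in OKN-007-treated mice. The case of Hcst passed the filter on low counts mainly through the G93A mice of 155 days. In untreated mice the difference on the log2 scale was 2.92 for Trem2, 3.20 for Tyrobp, 2.90 for Hcst, 1.78 for Syk, 1.52 for Plcg2 and 1.96 for Inpp5d, that of Hcst being lost on leaving out either of 2 single mice, and in OKN-007-treated mice 3.71 for Trem2, 3.48 for Tyrobp, 2.20 for Syk, 1.85 for Plcg2 and 2.01 for Inpp5d. Of 48 groups of 4 mice (6 genes in 8 groups), 0 held a mouse far from the other 3 by Dixon's criterion, which chance alone would give in about 2.4.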

How the results depend on the processing

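Under the alternatives tried, the number of the 6 genes called at 155 days stayed at 5 or 6 of 6 in untreated and in OKN-007-treated mice, where a minimum of 10 counts left Hcst untested, and no called change reversed. OKN-007 comparisons called 0 of the 6 in each alternative. At 90 days averaged over treatment, 0 of the 6 became 2 with no filter on low counts and 0 to 1 on leaving out single mice (1 without mouse 12 of the untreated G93A group). Pathway genes called at 90 days went from 0 to 1 in untreated mice (DESeq2, the likelihood ratio test, no filter, all 32 mice in one fit, and 0 to 1 on leaving out single mice), from 0 to 1 in OKN-007-treated mice (the likelihood ratio test, no filter, only the groups compared) and, averaged, from 1 to 2 (DESeq2, the likelihood ratio test, and 1 to 2 on leaving out single mice). The cause was not tested.

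Hcst was least stable. Its G93A change in OKN-007-treated mice at 155 days passed with the likelihood ratio test (adjusted p = 0.0497), with only the groups compared (0.0236) and without mouse 7 of the treated WT group (0.0456), and its age difference in untreated mice was lost without mouse 12 of the untreated G93A group of 90 days (2.56, adjusted p = 0.0554) or mouse 11 of that of 155 days (2.28, adjusted p = 0.0857). Its rise in untreated G93A mice between the ages was lost without any of mice 10 to 12 of 90 days, without mouse 11 of 155 days (1.19, adjusted p = 0.156) and with no filter. At 90 days, where it did not pass the filter, its adjusted p by edgeR was 0.856 or higher in the 12 comparisons made with no filter or with all 32 mice in one fit. Depth limits Hcst the most, as the member with the fewest counts.

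With the replicate number as a block, a pairing that the deviations did not bear out, the age difference of Trem2 in untreated mice was 2.93 and that of Tyrobp 3.26, and the count of the 6 genes called was 6 in untreated and 5 in OKN-007-treated mice.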
